A study of Rattus norvegicus with 8 samples.

Results

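The histone genes described here encode the core and linker proteins that package DNA, and their RNA was measured in whole lungs of newborn rats. They were chosen by name. A row of the array's value table (a transcript cluster, the unit the array summarises) was taken where the platform annotation gave exactly 1 gene symbol and that symbol began with a histone stem such as Hist1h, H1f, H2a, H2b, H3f or H4c. The rule found 56 rows with 48 symbols among 23446 rows that carry 1 symbol. Of these, 36 rows (30 symbols) belong to the replication-dependent genes of the histone clusters and 20 rows (18 symbols) to histone variants, and all rows of a gene were kept. Another 10 histone rows that list several symbols were left out.

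The study set lungs of pups born to vitamin D deficient dams against lungs of pups born to adequate dams, 4 lungs each, 1 array per lung. Deficient dams were fed 0 IU of vitamin D per kg of diet and were mated once serum 25-hydroxyvitamin D was below 10 ng/ml. Adequate dams were fed 1000 IU per kg. Calcium (0.5%) and phosphorus (0.4%) did not differ between the diets. The dams were kept at Denver altitude under light with ultraviolet blocked, and those below the serum limit were mated with vitamin D replete males. The pups' age is day 0 in the labels and day of life 1 in the growth protocol. No label names the strain, the sex or the litter of a pup. The p-values thus rest on the spread among 8 lungs, and that among litters may be wider.

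The titles of the arrays and the authors' deposited table of differing genes name the groups in opposite ways. All 8 array columns of the authors' deposited table hold the values of the array with the same number and the opposite title. The groups are therefore called titled deficient and titled adequate, and every difference below is titled deficient minus titled adequate. Of the table's 2123 rows that were tested here, 2123 run the other way in the authors' deposited table, histones included. Which naming is right was not settled by the files.

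The number of arrays limits the precision. Of 16412 rows tested (mean log2 signal of at least 5.30), limma called 1336 higher and 2188 lower in titled deficient at an adjusted p of 0.05. All 11 lung markers examined were above the level filter. In titled deficient 3 were lower (27.3%, against 13.3% of all rows) and 1 was higher (9.09%, against 8.14%). Lower were Nkx2-1, a lung epithelial transcription factor gene (log2 -0.85, limma adjusted p = 0.00249), the surfactant protein gene Sftpb (log2 -0.38, limma adjusted p = 0.00723) and the alveolar type 1 cell marker Ager (log2 -0.43, limma adjusted p = 0.0277), and the endothelial marker Cdh5 was higher (log2 0.54, limma adjusted p = 0.0125). The other 7 did not pass, among them Sftpc, an alveolar type 2 cell marker, at 19.86 ± 0.02 in titled deficient and 19.87 ± 0.03 in titled adequate (SD, n = 4 each). The mean log2 signal of 3 Y-linked genes separated the arrays: it was 5.67, 5.78, 5.68 and 5.70 on titled deficient 1 to 4, against 10.35, 10.31, 7.12 and 6.37 on titled adequate 1 to 4. Neutrophil markers averaged a log2 signal of 6.30 to 6.68 on the titled deficient arrays, against 8.68 to 8.86 on the titled adequate arrays, and 6 of 8 tested were lower in titled deficient, against 13.3% of all rows. Red cell markers (5 tested) and germ cell markers (2 tested) gave 0 calls in limma, also 0 at an unadjusted p under 0.05, and 0 of 7 thymocyte markers reached the level filter, with a highest signal of 5.46. Titled deficient 4 was the lowest of its group for 5 of 5 tested red cell markers, as it was in 41.4% of all rows. Red cell markers averaged 7.47, 7.11, 6.97 and 6.52 on titled deficient 1 to 4, against 7.73, 7.09, 7.16 and 7.30 on titled adequate 1 to 4. The part of neutrophil, red cell, epithelial and endothelial RNA in the histone results was not tested. In whole lung RNA, more cells of a type and more RNA per cell cannot be told apart.

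Histones H2A, H2B, H3 and H4 form the octamer around which DNA is wound in a nucleosome, and H1 binds the linker DNA between nucleosomes. Replication-dependent histone genes lie in clusters, mostly lack introns, and are transcribed mainly in S phase, when new chromatin is assembled. Their mRNAs end in a stem-loop bound by the protein of Slbp in place of a poly(A) tail and are degraded when DNA synthesis stops, so they are abundant in growing tissue such as the newborn lung. Variant genes, such as those of H2A.Z and H3.3, lie elsewhere in the genome, are mostly polyadenylated and are expressed in cycling and resting cells. The labels' protocol names primers with a T7 promoter for the cDNA step and does not say whether they were random. Copies of a family are nearly identical in their coding sequence, so a row may read transcripts of several copies, and rows are not independent measurements.

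Promoters of the cluster genes share short motifs, and 5 of them are shown because their rows cover the directions seen below: a pair of H2A genes higher in titled deficient, an H4 gene, the H2B gene with rows in both directions, and a linker gene. The windows run from 250 bases before to 50 bases after the annotated start (RefSeq, GRCr8). Capitals mark CCAAT on either strand. They also mark TATAAA, letters typical of a TATA box, at any position of the window and only in this exact form. The octamer ATTTGCAT, known from H2B promoters, is marked too. So is AAACACA, known from H1 promoters. H2ac4 lies at chr17:47496078-47496377 on the minus strand, Hist1h2ac at chr17:47174365-47174664 on the plus strand, Hist1h4m at chr17:47393514-47393813 on the plus strand, Hist1h2bq at chr17:41869292-41869591 on the minus strand and H1f4 at chr17:41914175-41914474 on the plus strand.
H2ac4: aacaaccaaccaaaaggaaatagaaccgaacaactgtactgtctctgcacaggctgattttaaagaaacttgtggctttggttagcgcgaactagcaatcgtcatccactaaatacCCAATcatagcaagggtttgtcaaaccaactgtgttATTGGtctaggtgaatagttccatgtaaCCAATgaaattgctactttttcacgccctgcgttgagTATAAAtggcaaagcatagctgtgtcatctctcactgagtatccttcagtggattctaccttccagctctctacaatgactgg
Hist1h2ac: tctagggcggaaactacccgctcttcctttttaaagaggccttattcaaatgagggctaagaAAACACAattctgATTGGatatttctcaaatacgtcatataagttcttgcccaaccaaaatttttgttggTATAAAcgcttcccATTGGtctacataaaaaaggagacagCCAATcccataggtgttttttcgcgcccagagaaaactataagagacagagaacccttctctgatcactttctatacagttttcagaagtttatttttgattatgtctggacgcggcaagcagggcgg
Hist1h4m: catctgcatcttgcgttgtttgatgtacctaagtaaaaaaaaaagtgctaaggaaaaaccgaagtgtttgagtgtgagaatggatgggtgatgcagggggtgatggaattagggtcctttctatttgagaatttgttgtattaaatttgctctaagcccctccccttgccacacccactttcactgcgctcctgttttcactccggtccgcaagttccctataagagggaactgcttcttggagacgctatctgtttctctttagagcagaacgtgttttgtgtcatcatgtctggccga
Hist1h2bq: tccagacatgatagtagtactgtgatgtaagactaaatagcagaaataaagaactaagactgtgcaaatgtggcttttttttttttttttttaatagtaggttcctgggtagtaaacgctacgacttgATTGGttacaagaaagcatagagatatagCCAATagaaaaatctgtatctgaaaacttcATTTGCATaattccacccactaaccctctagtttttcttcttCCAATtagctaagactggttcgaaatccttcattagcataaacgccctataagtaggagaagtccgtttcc
H1f4: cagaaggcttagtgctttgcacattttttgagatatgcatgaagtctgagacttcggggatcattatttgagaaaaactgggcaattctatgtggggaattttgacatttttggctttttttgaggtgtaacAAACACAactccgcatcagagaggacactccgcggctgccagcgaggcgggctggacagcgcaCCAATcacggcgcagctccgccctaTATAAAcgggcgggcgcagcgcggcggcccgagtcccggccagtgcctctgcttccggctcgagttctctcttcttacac

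H2ac4 carries 3 CCAAT motifs and a TATAAA whose first base lies 33 bases before the start. Hist1h2ac also carries 3 CCAAT motifs, with its TATAAA 118 bases before the start. H1f4 has 1 CCAAT at 55 bases and 1 TATAAA at 30 bases before the start, with the AAACACA motif further upstream. Hist1h2bq has the octamer at 63 bases before the start and no TATAAA, and the Hist1h4m window holds none of the 4 motifs. Both strands were searched, and no motif contains another. Among 44 histone genes with a window (of 48 symbols), CCAAT stood in 27 of 29 cluster genes (93.1%), 11 of 15 variant genes (73.3%) and 37.5% of 33469 rat promoters. TATAAA was found in 65.5% of cluster genes, 33.3% of variant genes and 14.2% of all promoters, and the octamer in 34.5%, 6.67% and 1.78%. AAACACA stood in 20.7% of cluster genes, 13.3% of variant genes and 6.99% of all promoters, and in 3 of 4 cluster H1 genes. The octamer was in 5 of 9 H2B and 5 of 11 H2A windows. A match describes letters in a window and not a bound site.

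Among cluster histones most calls were higher in titled deficient, and H2A genes held most of them. Of 32 cluster rows tested, 10 were higher (31.2%), 1 was lower (3.12%) and 21 did not pass, where 8.14% of all rows tested were higher and 13.3% lower. The 4 titled deficient arrays all lay above the 4 titled adequate arrays for 7 of the 32, against 11.2% of all rows, and all below for 1, against 16.3% of all rows. The median log2 difference of cluster rows was 0.37, and that of all rows tested was -0.02. With 1 array left out the cluster median was 0.27 to 0.56, the upper value both without titled deficient 4 and without titled adequate 4. By family, 6 of 12 H2A rows, 3 of 8 H2B rows, 1 of 6 H4 rows, 0 of 3 H3 rows and 0 of 3 H1 rows were higher, and the 1 lower row was an H2B row. The 3 higher H2B rows had overlapping groups and means below 6.82, the lowest array median of the negative control rows. Of variant rows, 1 of 14 tested was higher (7.14%) and 0 were lower in limma, with 4 at an unadjusted p under 0.05 and a median log2 difference of 0.15. Whether cluster and variant rows differ from each other was not tested. Differences were positive for 26 of 32 cluster rows, and for 23 after a second quantile normalization, 26 after cyclic loess and 28 with arrays centred on their medians. They were positive for 21 to 28 of 32 when 1 array was left out (21 without titled adequate 2), for 20 without titled adequate 1 and 2, and for 19 with the Y-linked signal as a covariate.

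**Figure D1:**
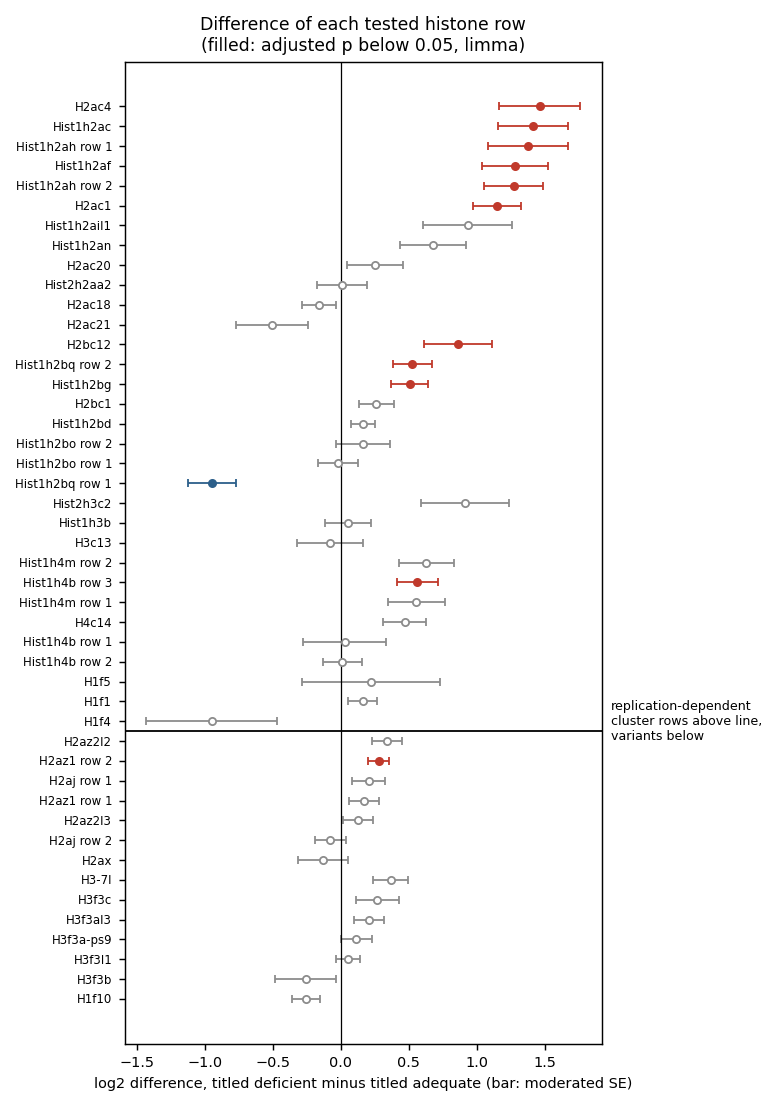
Log2 difference of each tested histone row (x axis, titled deficient minus titled adequate, bars are moderated standard errors), cluster rows above the line and variant rows below it. Filled points passed an adjusted p of 0.05: 10 cluster rows and 1 variant row lie right of 0 and 1 cluster row lies left of 0.

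Genes of H2A, which pairs with H2B in the nucleosome, showed the widest differences among cluster rows. H2ac4 had log2 signals of 12.24, 12.13, 12.36 and 11.11 on titled deficient 1 to 4, against 10.41, 9.95, 10.61 and 11.02 on titled adequate 1 to 4. Titled deficient 4 and titled adequate 4 almost met, yet the groups did not overlap. The mean was 11.96 ± 0.58 in titled deficient and 10.50 ± 0.44 in titled adequate (SD, n = 4 each), a 2.75-fold difference (log2 1.46, SE 0.30, limma adjusted p = 0.00923). Hist1h2ac read 8.76, 8.95, 8.92 and 7.85 on the titled deficient arrays, against 6.95, 6.89, 7.29 and 7.69 on the titled adequate arrays. It was 2.66-fold higher (log2 1.41, SE 0.26, limma adjusted p = 0.00614), again with array 4 of each group nearest to the other group.

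Hist1h2ah has a pair of rows, and both were higher. Row 1 read 12.14, 12.02, 12.24 and 10.93 in titled deficient, against 10.57, 9.90, 10.51 and 10.86 in titled adequate (2.60-fold, log2 1.38, SE 0.30, limma adjusted p = 0.0119). Row 2 read 9.95, 9.97, 9.94 and 9.09 in titled deficient, against 8.24, 8.37, 8.36 and 8.90 in titled adequate (2.41-fold, log2 1.27, SE 0.22, limma adjusted p = 0.00463). In each row titled deficient 1 to 3 lay close together, more than a log2 unit above the highest titled adequate array, and titled deficient 4 stood just above it. Hist1h2af read 14.57, 14.57, 14.67 and 13.72 in titled deficient, against 13.04, 12.61, 13.24 and 13.52 in titled adequate, and was 2.43-fold higher (log2 1.28, SE 0.24, limma adjusted p = 0.00692).

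H2ac1 showed the smallest p among the cluster rows. Its product is an H2A known in mouse from the male germ line, where it pairs with the H2B of the neighbouring H2bc1. H2ac1 read 9.70, 9.95, 9.77 and 9.06 in titled deficient, against 8.51, 8.36, 8.36 and 8.67 in titled adequate (2.22-fold, log2 1.15, SE 0.18, limma adjusted p = 0.00309). H2bc1, whose promoter window shares 261 bases with that of H2ac1 on the opposite strand, read 6.09, 6.25, 6.59 and 5.99 in titled deficient, against 6.05, 5.86, 5.85 and 6.11 in titled adequate. These groups overlapped, and H2bc1 did not pass (log2 0.26, SE 0.13, limma adjusted p = 0.167). Germ cell markers had a highest log2 signal of 6.65.

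Other H2A rows did not pass. Hist1h2ail1 had a log2 difference of 0.93 (SE 0.33, limma adjusted p = 0.0683) and Hist1h2an one of 0.68 (SE 0.24, limma adjusted p = 0.0732). In both, titled deficient 4 lay among the titled adequate arrays: Hist1h2an read 7.22, 6.84, 7.09 and 5.95 in titled deficient, against 5.93, 5.99, 6.16 and 6.32 in titled adequate. The 4 H2A rows of the smaller cluster on chromosome 2 had log2 differences of 0.25 for H2ac20, 0.01 for Hist2h2aa2, -0.16 for H2ac18 and -0.50 for H2ac21, with adjusted p from 0.193 to 0.975 in limma. The 6 H2A rows called higher all belong to genes on chromosome 17, where the main rat cluster lies. Chromosomes were compared as a description only.

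**Figure D2:**
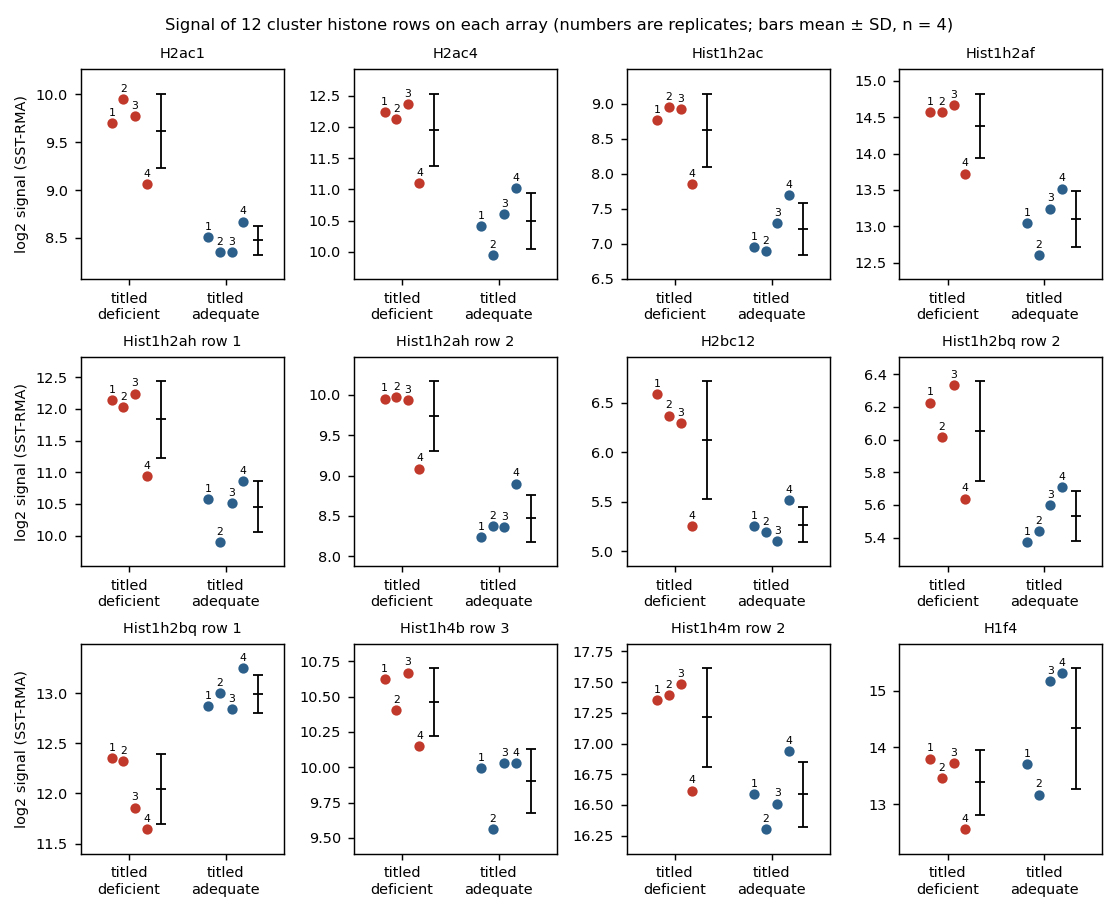
Log2 signal of 12 cluster histone rows on each array (y axis), titled deficient left and titled adequate right, numbered by replicate, with bars for the mean ± SD (n = 4). Titled deficient 4 is the lowest of its group in all 12 panels, and the H1f4 panel shows titled adequate 3 and 4 above the other 6 arrays.

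Among H2B genes, Hist1h2bq gave opposite results in its 2 rows. Row 1 read 12.36, 12.33, 11.86 and 11.64 in titled deficient, against 12.87, 13.00, 12.84 and 13.25 in titled adequate, with no overlap. It was the 1 cluster row called lower (1.93-fold, log2 -0.95, SE 0.17, limma adjusted p = 0.00628). Row 2 read 6.23, 6.02, 6.33 and 5.64 in titled deficient, against 5.37, 5.44, 5.60 and 5.71 in titled adequate, and was higher (1.44-fold, log2 0.52, SE 0.14, limma adjusted p = 0.0303). Row 2 is dim, with a mean of 5.79, below 6.82, the lowest array median of the negative control rows. Its groups overlapped, and it passed in 10 of 19 alternative fits, where row 1 (mean 12.52) passed in all 21. RefSeq gives this gene 4 transcripts over 9935 bases, long for a histone gene, and the authors' deposited table names row 1 Hist1h2bh. No source used here says which transcripts each row reads, so no direction is given for the symbol as a whole.

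H2bc12 read 6.59, 6.37, 6.30 and 5.26 in titled deficient, against 5.26, 5.20, 5.11 and 5.52 in titled adequate. Titled deficient 4 lay within the titled adequate arrays, whose mean was below the level filter, so the fold is a bound: H2bc12 was at least 1.72-fold higher, with signals below the filter set to it (log2 difference 0.86, SE 0.25, limma adjusted p = 0.0363). Hist1h2bg was 1.42-fold higher (log2 0.51, SE 0.14, limma adjusted p = 0.0271), with 5.82 ± 0.27 in titled deficient and 5.31 ± 0.17 in titled adequate (SD, n = 4 each). These rows are dim. Of called histone rows, only the 3 H2B rows called higher had a mean below 6.82, the lowest array median of the negative control rows. Of all tested histone rows, 9 cluster rows and 1 variant row had a mean below it. The negative control median was 7.22 on titled deficient 4 and 6.82 to 6.99 on the other arrays. Antigenomic background rows averaged 3.71 on titled deficient 4 and 3.82 to 3.92 on the others. Whether this bears on the histone signals of titled deficient 4 was not tested. The number of H2B rows higher was 0 to 3 over the 8 fits that left out 1 array each.

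Of the other H2B rows, Hist1h2bd (log2 0.17) and the 2 rows of Hist1h2bo (log2 -0.02 and 0.16) did not pass, with adjusted p from 0.204 to 0.93 in limma. Hist1h2bc, H2bu1 and Hist3h2ba were too dim for the level filter and were tested only in the fit with no filter. H2bu1 read 4.57 to 4.89 in titled deficient and 4.07 to 4.33 in titled adequate, and Hist3h2ba read 5.19 to 5.78 in titled deficient and 4.85 to 5.17 in titled adequate. Neither pair of groups overlapped, but these signals are below the negative control median. With no filter on level both were called higher (H2bu1 log2 0.52, limma adjusted p = 0.00577, and Hist3h2ba log2 0.52, limma adjusted p = 0.0226) and Hist1h2bc was not (log2 0.28, limma adjusted p = 0.0518), which brought the H2B rows called higher to 5 and the cluster rows to 12.

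H4, which pairs with H3, had 6 rows from 3 symbols. Hist1h4b row 3 read 10.63, 10.41, 10.67 and 10.15 in titled deficient, against 9.99, 9.56, 10.03 and 10.03 in titled adequate, without overlap (1.47-fold higher, log2 0.56, SE 0.15, limma adjusted p = 0.0273). Rows 1 and 2 of the same symbol had log2 differences of 0.03 and 0.01 and did not pass, and neither is tied to a current RefSeq gene. The identifier of row 1 points to chromosome 4 and those of rows 2 and 3 to chromosome 17, so the 3 rows may not read 1 gene.

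Hist1h4m, whose promoter window held none of the motifs, did not pass in either row. Row 2 read 17.36, 17.39, 17.49 and 16.62 in titled deficient, against 16.59, 16.30, 16.51 and 16.94 in titled adequate (log2 0.63, SE 0.20, limma adjusted p = 0.0526). Titled deficient 4 lay inside the titled adequate range. Row 1 had a log2 difference of 0.55 (adjusted p = 0.0867 in limma) and H4c14 one of 0.47 (adjusted p = 0.0587 in limma). Without titled deficient 4, these 3 rows passed with adjusted p of 0.00721, 0.00643 and 0.0361 in limma. The 6 H4 differences were positive, but only 4 of 6 were after a second quantile normalization.

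For H3, which pairs with H4, 0 of 3 cluster rows passed in limma, with 1 at an unadjusted p under 0.05. Hist2h3c2 read 16.51, 16.13, 16.84 and 15.46 in titled deficient, against 15.27, 14.67, 15.36 and 15.99 in titled adequate. The groups overlapped through array 4 of each (log2 0.91, SE 0.32, limma adjusted p = 0.0707). Hist1h3b and H3c13 had log2 differences of 0.05 and -0.08, and the sign of H3c13 turned with arrays centred on their medians (0.02).

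Linker histones of the cluster gave 0 of 3 calls in limma, also 0 at an unadjusted p under 0.05, and other arrays stood apart. H1f4, which encodes H1.4, one of the main somatic linker histones, read 13.80, 13.46, 13.72 and 12.56 in titled deficient, against 13.70, 13.17, 15.16 and 15.30 in titled adequate. Titled adequate 3 and 4 were the highest of the 8 arrays, and titled adequate 1 and 2 lay among the titled deficient ones. H1f4 did not pass (log2 -0.95, SE 0.48, limma adjusted p = 0.179). Its log2 difference was -1.85 without titled adequate 1 and 2 (limma adjusted p = 0.0101) and -0.05 without titled adequate 3 and 4 (limma adjusted p = 0.929). Titled adequate 3 and 4 are also the pair with the lower Y-linked signal in that group.

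H1f5, which encodes H1.5, read 10.22, 9.99, 9.89 and 8.68 in titled deficient, against 8.77, 8.41, 9.99 and 10.72 in titled adequate. Here too titled adequate 3 and 4 lay above 1 and 2, while titled deficient 4 was among the low arrays, and the groups overlapped (log2 0.22, SE 0.51, limma adjusted p = 0.779). H1f1 (log2 0.16, limma adjusted p = 0.315) did not pass either. H1f6, the linker histone of the testis, was below the level filter at 4.36 ± 0.08 in titled deficient and 4.30 ± 0.09 in titled adequate (SD, n = 4 each).

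Log2 differences of the variant rows ran from -0.26 to 0.37, and those of the cluster rows from -0.95 to 1.46. H2az1, which encodes H2A.Z, a variant found at promoters, has a pair of rows. Row 2 read 8.33, 8.51, 8.38 and 8.40 in titled deficient, against 8.06, 8.08, 8.16 and 8.21 in titled adequate, without overlap, and was the 1 variant row called (1.21-fold higher, log2 0.28, SE 0.08, limma adjusted p = 0.0336). Its identifier points to chromosome 16, whereas RefSeq places the gene on chromosome 2, so it may read another copy. Row 1, whose identifier points to chromosome 2, did not pass (log2 0.17, SE 0.11, limma adjusted p = 0.28). Row identifiers and RefSeq agree on the chromosome for 98.7% of 21785 rows.

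The H2A.Z-like copy H2az2l2 read 10.10, 10.34, 10.22 and 10.11 in titled deficient, against 10.08, 9.65, 9.83 and 9.85 in titled adequate. The groups did not overlap, by a small margin, and it did not pass (log2 0.34, SE 0.11, limma adjusted p = 0.0547). H2az2l3 (log2 0.13, adjusted p = 0.431) and the 2 rows of H2aj (log2 0.20 and -0.08, adjusted p = 0.248 and 0.665) did not pass in limma. H2ax, whose product is phosphorylated beside DNA breaks, read 10.00, 10.19, 10.59 and 9.92 in titled deficient, against 9.95, 10.18, 10.65 and 10.44 in titled adequate, with overlap (log2 -0.13, SE 0.18, limma adjusted p = 0.626).

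H3.3 is the H3 variant placed in chromatin outside S phase. Here titled deficient 4 stood at the other end: in 6 of 6 tested H3 variant rows, titled deficient 4 was the highest of its group, as it was in 30.9% of all rows (43.1% with arrays centred on their medians). H3f3c read 12.12, 12.07, 12.02 and 12.69 in titled deficient, against 11.82, 11.79, 12.13 and 12.09 in titled adequate (log2 0.27, SE 0.16, limma adjusted p = 0.251). H3-7l read 12.26, 12.52, 12.35 and 12.80 in titled deficient, against 12.09, 12.10, 12.28 and 12.00 in titled adequate (log2 0.37, SE 0.13, limma adjusted p = 0.0723). Both sets of groups overlapped.

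H3f3b, which encodes H3.3, read 10.98, 10.96, 10.78 and 11.20 in titled deficient, against 10.72, 10.89, 11.81 and 11.53 in titled adequate. As in H1f4, titled adequate 3 and 4 stood above the other 6 arrays, and H3f3b did not pass (log2 -0.26, SE 0.23, limma adjusted p = 0.432). Without titled adequate 1 and 2 the log2 difference was -0.69 (limma adjusted p = 0.0199), and without titled adequate 3 and 4 it was 0.17 (limma adjusted p = 0.419). The H3.3-like copies H3f3al3, H3f3a-ps9 and H3f3l1 had log2 differences of 0.21, 0.11 and 0.05, with adjusted p from 0.201 to 0.713 in limma. H1f10, a linker variant, had a log2 difference of -0.26 (SE 0.10, limma adjusted p = 0.101). H1f7, H1f8, H2ab3, H2ap, H2bl1 and H3f3al1, with signals from 3.76 to 5.37, did not reach the level filter. With no filter their log2 differences were -0.03 to 0.21, and 0 of these 6 rows passed (adjusted p from 0.0879 to 0.869 in limma).

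Cluster rows shared an order of arrays. Titled deficient 4 was the lowest of its group in 32 of 32 tested cluster rows, as it was in 41.4% of all rows tested. Titled adequate 4 was the highest of its group in 30 of 32 (93.8%, against 25.0% of all rows) and titled adequate 2 the lowest in 23 of 32 (71.9%, against 25.3%). In variant rows these counts were 6, 1 and 5 of 14. With arrays centred on their medians, the cluster counts were 32, 29 and 21 of 32, against 29.0%, 19.7% and 18.6% of all rows. Copies that cross-hybridise count the same RNA more than once, so the number of rows is no measure of independent support.

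As row-centred medians, the 12 H2A rows stood at 0.81, 0.79, 0.71 and -0.29 on titled deficient 1 to 4, against -0.53, -0.71, -0.50 and -0.16 on titled adequate 1 to 4. Titled deficient 4 thus lay between the other 3 titled deficient arrays and 3 of the titled adequate ones. The 6 H4 rows stood at 0.27, 0.29, 0.56 and -0.31 in titled deficient, against -0.17, -0.54, -0.19 and 0.02 in titled adequate. Over the 14 variant rows the medians were 0.04, 0.09, 0.06 and 0.09 in titled deficient, against -0.19, -0.15, 0.07 and -0.07 in titled adequate. This median joins families that place titled deficient 4 differently: on that array the 7 H2A variant rows had a median of -0.10, the 6 H3 variant rows one of 0.22, and the 1 H1 variant row stood at -0.39.

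**Figure D3:**
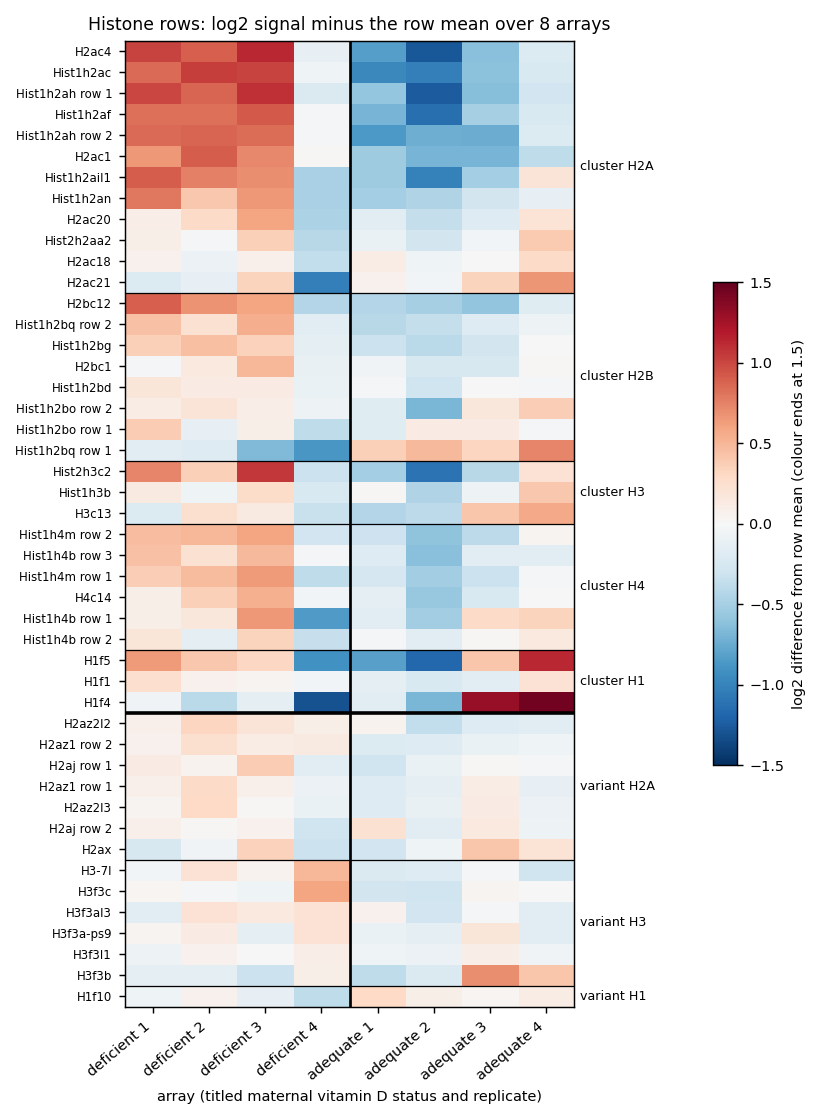
Log2 signal of each tested histone row minus its mean over 8 arrays (colour), by family, titled deficient arrays left and titled adequate arrays right. Titled deficient 1 to 3 are above the mean and titled adequate 1 to 3 below it in most cluster H2A and H4 rows, and titled deficient 4 is the lowest of its group in every cluster row.

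Genes of S phase and proliferation, called S phase genes here, were examined because cluster histone transcription is tied to DNA synthesis. Of 35 tested, 9 were higher (25.7%, against 8.14% of all rows) and 1 lower (2.86%, against 13.3% of all rows) in titled deficient. Their median log2 difference was 0.31, and that of all rows -0.02. Pcna, the sliding clamp of DNA polymerases, read 12.14, 12.13, 11.88 and 11.90 in titled deficient, against 10.70, 11.11, 11.69 and 11.39 in titled adequate (1.73-fold higher, limma adjusted p = 0.0188). Ccna2, the S phase cyclin gene, was 1.87-fold higher (log2 0.91, SE 0.22, limma adjusted p = 0.0185), Ccne2, a cyclin of S phase entry, 1.62-fold (limma adjusted p = 0.00406), the polymerase gene Pole 1.58-fold (limma adjusted p = 0.0214) and the licensing factor gene Cdt1 1.34-fold (limma adjusted p = 0.00902). The proliferation marker Mki67 (log2 0.31, limma adjusted p = 0.225) and Top2a (log2 0.58, limma adjusted p = 0.12) did not pass. The list also holds mitotic genes. Of these, Plk1 (log2 -0.22), Cdc20 (log2 -0.21), Bub1 (log2 0.23), Ccnb1 (log2 0.12) and Birc5 (log2 0.36) did not pass in limma, and Aurkb is given below.

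Titled deficient 4 was the lowest of its group for 25 of the 35 S phase genes, against 41.4% of all rows, but not for Pcna or Ccne2. The lowest titled adequate array was number 1 or 2 for 33 of 35. It was so for 24 of 32 histone chaperone and 15 of 26 histone mRNA genes, and the share over all rows was not counted. Titled adequate 1 and 2 are the arrays with the high Y-linked signal. Averaged over the list, log2 signals were 8.62, 8.74, 8.54 and 8.32 in titled deficient, against 8.10, 8.01, 8.52 and 8.47 in titled adequate, so titled deficient 4 lay below titled adequate 3 and 4. Without titled adequate 1 and 2, 2 S phase genes were higher, and without titled adequate 3 and 4, 19 were. The 1 lower gene was Aurkb, a mitotic kinase gene (log2 -1.31, limma adjusted p = 0.0449), named because it is the single lower call of its list. It read 9.02, 9.50, 9.20 and 9.42 in titled deficient, against 11.18, 11.62, 10.12 and 9.46 in titled adequate.

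**Figure D4:**
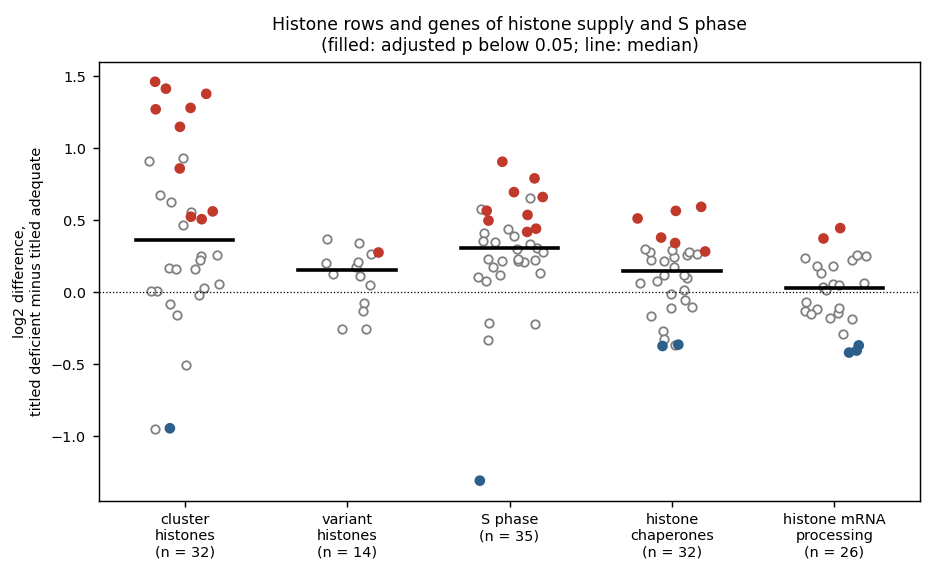
Log2 difference (y axis, titled deficient minus titled adequate) of each tested row or gene in the cluster and variant histones and in 3 lists, with filled points for an adjusted p below 0.05 and a line at the median. The medians are 0.37 for cluster histones, 0.15 for variants and 0.31 for S phase and proliferation genes.

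Of 26 genes tested that make or process histone mRNA, 2 were higher (7.69%) and 3 lower (11.5%), shares near the 8.14% and 13.3% of all rows. Slbp, whose product binds the stem-loop, read 8.81, 8.83, 8.95 and 8.99 in titled deficient, against 8.38, 8.46, 8.74 and 8.51 in titled adequate (1.29-fold higher, limma adjusted p = 0.0263). Unlike the cluster histones, Slbp had its highest signal on titled deficient 4. Ybx1, an RNA-binding protein gene, was 1.36-fold higher (limma adjusted p = 0.00664). Lower were Hinfp, a transcription factor gene of H4 promoters (1.34-fold, limma adjusted p = 0.0287), and the 3' end processing genes Sympk (1.33-fold, limma adjusted p = 0.0297) and Cpsf3 (1.29-fold, limma adjusted p = 0.0459). Npat, the coactivator of the clusters (log2 0.06, limma adjusted p = 0.729), and Casp8ap2 (log2 0.24, limma adjusted p = 0.0928) did not pass.

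Among histone chaperones, which carry histones to and from DNA, 6 of 32 were higher (18.8%, against 8.14% of all rows) and 2 lower (6.25%, against 13.3% of all rows). Mms22l, which acts with Tonsl at replication forks, was 1.51-fold higher (limma adjusted p = 0.00466), Hjurp, the chaperone of the centromeric H3, 1.48-fold (limma adjusted p = 0.0205), and Npm1 1.43-fold (limma adjusted p = 0.0101). Nasp, which holds the H3 and H4 reserve, was 1.27-fold higher, Chaf1b, a subunit of the replication-coupled assembly factor, 1.22-fold, and the remodeller gene Ino80 1.30-fold (limma adjusted p = 0.039, 0.0454 and 0.024). Daxx and Cabin1, which act in H3.3 deposition, were lower by 1.29-fold and 1.30-fold (limma adjusted p = 0.0164 and 0.0377). Other genes of H3.3 deposition did not pass in limma: Hira (log2 0.10), Ubn1 (log2 0.06), Ubn2 (log2 -0.06) and Atrx (log2 0.12). Asf1b (log2 -0.11) and Chaf1a (log2 0.26) did not pass either.

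Of 5 centromeric and macroH2A genes outside the symbol rule, Cenpa, which encodes the centromeric H3, and Cenpw were higher, where 8.14% of all rows were. Cenpa read 7.42, 7.62, 7.50 and 7.39 in titled deficient, against 6.96, 6.72, 7.29 and 7.17 in titled adequate (1.37-fold, limma adjusted p = 0.0295). Cenpw was 1.31-fold higher (limma adjusted p = 0.0347). Macroh2a1 (log2 -0.24), Macroh2a2 (log2 -0.32) and Cenpt (log2 0.16) did not pass, with adjusted p from 0.159 to 0.304 in limma.

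The Y-linked signal differs between the groups and within titled adequate. It ran from 5.67 to 5.78 on the titled deficient arrays and from 6.37 to 10.35 on the titled adequate arrays. The slope of this covariate thus rests mainly on the titled adequate arrays, and Y-linked signal and group cannot be fully told apart. With the mean Y-linked signal per array as a covariate 1 cluster row was called higher (H2ac1, log2 1.07, limma adjusted p = 0.0341). In that fit 3 cluster rows were called lower (Hist1h2bq row 1, H1f4 and H3c13), and 0 S phase genes were higher in limma. The other 5 H2A rows called above kept positive log2 differences, 0.94 for H2ac4, 0.95 for Hist1h2ac, 0.83 for Hist1h2af and 1.01 and 0.98 for the rows of Hist1h2ah, with adjusted p from 0.0703 to 0.16 in limma. The 4 called H2B and H4 rows that were higher had log2 differences of 0.32 to 0.76 there, with adjusted p from 0.233 to 0.342 in limma. Without titled adequate 1 and 2, 4 cluster rows were higher, all of them H2A rows (H2ac1, Hist1h2ac, Hist1h2af and Hist1h2ah row 2), and 2 were lower. Without titled adequate 3 and 4, 11 were higher and 1 lower, and without titled deficient 4, 16 were higher. H2ac1 and Hist1h2bq row 1 passed in all 21 alternatives run, and the 6 H2A calls were kept in each fit that left out 1 array.

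The authors' deposited table lists 9 of the 56 histone rows, some under other symbols. It names H1f4 Hist1h1d, H2ac1 Hist1h2aa, H2ac4 Hist1h2ak, H2bc12 Hist1h2bk and Hist1h2bq row 1 Hist1h2bh. Its signed folds, negative where the group it names deficient is lower, are -2.80 for H2ac4, -2.71 for Hist1h2ac, -2.68 and -2.45 for the Hist1h2ah rows, -2.44 for Hist1h2af, -2.26 for H2ac1, -1.91 for H2bc12, 1.90 for Hist1h2bq row 1 and 2.21 for H1f4, all from the authors' deposited table. Each has the opposite direction to the difference by title, as the group naming described above entails. Of the 9, limma called 8 here, and H1f4 was not called.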

How the data were processed

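Whole lung RNA of 8 newborn rats was hybridised to 1-colour Affymetrix arrays. The authors deposited log2 values. Per the labels they are gene-level SST-RMA values, and the submitters' processing notes name Affymetrix Expression Console and RMA. RMA normalizes between arrays, but the medians of the rows tested still differed. They were 7.86, 7.88, 7.84 and 7.77 on titled deficient 1 to 4, against 7.90, 7.90, 7.97 and 7.97 on titled adequate 1 to 4. For the version, the library file and the build: not given in the sources used here. The authors' deposited table holds log2 values and a signed fold score. Its 8 linear columns were not used.

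Control rows (1738 of 70580) were left out. Of 68842 transcript clusters, 23446 had 1 symbol in the platform annotation, 505 several and 44891 none. Rows with a mean over 8 arrays below percentile 30 (log2 5.30) were not tested. The remaining 16412 rows were tested in limma 3.58.1 (R 4.3.3) with lmFit and eBayes with a trend, 2-sided and without covariate, and p-values were adjusted by Benjamini-Hochberg over all of these rows. Folds are 2 to the size of the log2 difference. The fit was tested on simulated data with independent rows, which copies of histone genes are not. It recovered 6% of changes of 1.2-fold, 48% of 1.5-fold, 88% of 2-fold and 98% of 4-fold, and called 10 unchanged rows. Smaller differences can thus be missed at this number of arrays. For the gene lists, the brightest row stood for each gene.

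Of 53 histone rows with a gene identifier, 52 matched a current RefSeq gene, and 44 of 48 symbols matched a promoter (42 by identifier, 2 by symbol). Named are all tested variant and linker rows, the cluster rows with the widest differences or highest signals, rows in the authors' deposited table, members of each list with the smallest p, a fixed set of list genes, and rows with an array far from the others. Members and lists were chosen with earlier results of these data known. Other cluster rows are named to account for every member, after their values were seen.

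Alternatives were the level filter, the rows kept, 3 rescalings, a replicate block, a Y-linked covariate, array weights, no variance trend and leaving out each array. Leaving out titled adequate 1 and 2, or 3 and 4, was added after seeing the data.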

Additional observations from a re-analysis of the deposited data

Results flagged for a closer look

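In 13 of 150 groups of 4 arrays, 1 array stood far from the other 3 of its group by Dixon's test, where chance gives about 5% of groups. Of these 13, 10 concern titled deficient 4. It read low for the H2A rows Hist1h2ac (7.85, against 8.76 to 8.95 on the other 3), Hist1h2af (13.72, against 14.57 to 14.67), Hist1h2ah row 1 (10.93, against 12.02 to 12.24), Hist1h2ah row 2 (9.09, against 9.94 to 9.97) and Hist1h2ail1 (8.09, against 9.27 to 9.48). It also read low for the H4 row Hist1h4m row 2 (16.62, against 17.36 to 17.49), for the variant H2aj row 2 (6.78, against 7.10 to 7.15) and for the 3' end processing gene Sympk (7.55, against 7.95 to 7.99). It read high for the H3 variant H3f3c (12.69, against 12.02 to 12.12) and for the chaperone gene Npm1 (15.23, against 14.83 to 14.89). Titled adequate 2 read low for Hist1h2bd (5.06, against 5.32 to 5.36) and for Hist1h4b row 3 (9.56, against 9.99 to 10.03), and titled deficient 1 read low for the chaperone gene Hira (8.36, against 8.46 to 8.47). Several of these rows are near-identical copies, so these cases are not independent.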

How the results depend on the processing

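Over 21 alternatives, no histone row called on the deposited values changed sign. Hist1h2bq row 1 and H2ac1 passed in all 21, Hist1h2ac and Hist1h2af in 20, and H2ac4 and Hist1h2ah row 1 in 19. Calls of the H2B and H4 rows and of H2az1 row 2 were less stable, with H2bc12 passing in 9 of 20 and Hist1h4b row 3 in 13 of 20. Counts are given as higher and lower in titled deficient, against 10 and 1 cluster rows, 1 and 0 variant rows, 9 and 1 S phase, 6 and 2 chaperone and 2 and 3 histone mRNA genes on the deposited values, and 3524 rows called in all. The cause of each change below was not tested.

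Without a level filter 5 H2B rows were higher, against 3, and 0 S phase genes were lower. A level filter at percentile 50 left 23 cluster rows, of which 8 were higher, with 0 H2B rows and 2 H4 rows among them. With 1 row per symbol 7 of 26 cluster rows, 0 H4 rows and 0 variant rows were higher. Over all transcript clusters 6332 rows were called, 0 variant rows were higher, 0 S phase, 1 chaperone and 0 histone mRNA genes were lower, and 1 histone mRNA gene was higher. A second quantile normalization gave 8 cluster rows higher, with 1 H2B row among them, and 2 variant rows higher. Cyclic loess gave 13 cluster rows higher, with 3 H4 rows among them, 2 variant rows and 4 histone mRNA genes higher and 0 S phase genes lower. Centring arrays on their medians gave 17 cluster rows, 3 variant rows (median 0.25), 15 S phase, 12 chaperone and 5 histone mRNA genes higher, and 0 S phase, 1 chaperone and 1 histone mRNA gene lower. Array weights gave 16 cluster rows, 2 variant rows, 14 S phase, 10 chaperone and 4 histone mRNA genes higher and 2 S phase genes lower. Without a variance trend 2 variant rows were higher and 2 S phase genes lower.

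With the Y-linked signal as a covariate 2171 rows were called, 1 cluster row was higher and 3 lower, 0 variant rows were higher and 1 lower (H3f3b), with a variant median of 0.0403, 0 S phase, 0 chaperone and 0 histone mRNA genes were higher, and 1 chaperone and 0 histone mRNA genes were lower. Without titled adequate 1 and 2, 4 cluster rows were higher and 2 lower, 0 variant rows higher and 1 lower, 2 S phase, 2 chaperone and 1 histone mRNA genes higher, and 1 chaperone and 0 histone mRNA genes lower. Without titled adequate 3 and 4, 19 S phase genes were higher, and 2 S phase genes and 1 histone mRNA gene lower. Leaving out 1 array gave 2234 to 3260 rows in all, 6 to 16 cluster rows higher, 0 to 1 variant rows higher, 2 to 11 S phase genes higher and 0 to 2 lower, 2 to 7 chaperone genes higher and 1 to 2 lower, and 1 to 2 histone mRNA genes higher and 0 to 2 lower. The 16 cluster rows came without titled deficient 4 and the 2 S phase genes without titled deficient 2.

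Deviations from the group means had correlations of -0.16, 0.04, -0.35 and -0.28 between same-numbered arrays. Between arrays of unlike number they ran from -0.13 to 0.26. So few values cannot tell whether the numbers pair the lungs, and no label says so. With the replicate block 1810 rows were called, 6 cluster and 0 variant rows were higher, 3 S phase, 2 chaperone and 0 histone mRNA genes were higher, and 0 S phase, 0 chaperone and 0 histone mRNA genes were lower. The 6 cluster rows were H2A rows.

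Limits are the 4 arrays a group, unknown litters, signals below the negative control median for 9 tested cluster rows, and cross-hybridising copies. Group names also differ between the titles and the authors' deposited table. A further limit is the Y-linked signal, which differs between the groups, while no label names the sex of a pup.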
